A study of Homo sapiens with 6 samples.

Results

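Cytosolic sulfotransferases were described in TPC1, a cell line from a human papillary thyroid cancer, with and without overexpression of the transcription factor TFCP2L1. The set held 10 named genes of 21173 in the count table: 8 sulfotransferases (SULT1A1, SULT1A2, SULT1A3, SULT1B1, SULT1C2, SULT1C4, SULT1E1 and SULT2B1) and the 2 PAPS synthases, PAPSS1 and PAPSS2. Rows were taken by gene symbol. The members were chosen on read counts and fold changes of TFCP2L1 against vector cells, among them those of SULT1C2. Their values in that comparison are therefore a description, and the p-values printed for them only place them within the fit of all genes. Of the 10 members, 8 had a row, 4 passed the filter on low counts (SULT1C2, SULT2B1, PAPSS1 and PAPSS2), and 4 had too few reads to be tested. SULT1A2 and SULT1E1 had no row and were not analysed here. A gene could pass the filter through 1 group alone.

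Sulfotransferases of the cytosol move a sulfonate group from the donor PAPS onto phenols, steroids, iodothyronines and drugs, which usually makes them more soluble and less active. PAPS is made from ATP and inorganic sulfate by the PAPS synthases, each of which joins an ATP sulfurylase and an APS kinase in 1 protein. In thyroid biology the pathway is known for the sulfation of thyroid hormones, which speeds their deiodination. SULT1C2 is a phenol-type enzyme known from stomach, kidney and thyroid.

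RNA-seq was made from 3 libraries of TPC1 cells with a vector, labelled WT, and 3 libraries of TPC1 cells labelled as overexpressing TFCP2L1. The sources used here do not give the promoter, the time after gene transfer, or whether the cells were 1 clone or a pool. Nothing in the labels ties the replicates to separate cultures, and p-values then measure only how far these libraries scatter, which may be technical. In bulk RNA a lower share of cells of a type and less RNA per cell cannot be told apart. TFCP2L1 itself was counted 0, 0 and 1 times in vector replicates 1 to 3 and 13578, 13885 and 12333 times in its overexpression libraries. Totals ran from 37928516 to 38987434 reads. Mitochondrially encoded genes took 5.13% to 6.72% of reads in vector and 5.18% to 7.59% in TFCP2L1 libraries, peaking in replicate 2 of vector and replicate 3 of TFCP2L1. Of 12 thyroid follicular markers 8 had a row and 5 were tested. PAX8, the thyroid lineage factor, stood at 544 ± 24.4 CPM in vector cells (SD, n = 3; CPM is the read count relative to library size after TMM scaling), while thyroglobulin (TG) was at 1.10 ± 0.361 CPM, and no row was found for NKX2-1 or TSHR. Of 9 liver and gut markers 5 had a row. Their sum was 383 to 426 CPM in vector and 170 to 184 CPM in TFCP2L1 libraries, nearly all from SERPINA1 (402 ± 21.7 and 176 ± 7.78 CPM), while albumin (ALB) was at 0.00885 ± 0.0153 and 0.0170 ± 0.0295 CPM. The 5 of 7 leukocyte markers with a row summed to 70.1 to 85.6 CPM in vector and 98.4 to 125 CPM in TFCP2L1 libraries, and their defining marker PTPRC was at 0.0708 and 0.0255 CPM.

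The coding sequences show how alike these genes are and therefore which reads can be told apart. The 60 coding bases below are the gap-free stretch in which the other aligned sulfotransferases best matched SULT1C2. SULT1C3 and SULT1A4 were also aligned but are not shown. The stretch lies in the part that encodes the C-terminal portion of the PAPS-binding site. Capitals mark bases that differ from SULT1C2. They are read from GENCODE v29 transcripts on GRCh38, 5′ to 3′.
SULT1C2: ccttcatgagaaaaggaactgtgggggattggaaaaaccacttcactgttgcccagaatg
SULT1C4: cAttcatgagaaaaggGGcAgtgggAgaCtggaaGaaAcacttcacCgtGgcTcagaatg
SULT1A1: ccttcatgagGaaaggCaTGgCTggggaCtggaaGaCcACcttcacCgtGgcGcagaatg
SULT1A2: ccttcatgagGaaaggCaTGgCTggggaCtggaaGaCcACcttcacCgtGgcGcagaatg
SULT1A3: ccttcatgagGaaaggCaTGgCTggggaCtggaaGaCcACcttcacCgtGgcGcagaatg
SULT1B1: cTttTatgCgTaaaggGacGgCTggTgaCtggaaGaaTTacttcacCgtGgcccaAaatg
SULT1E1: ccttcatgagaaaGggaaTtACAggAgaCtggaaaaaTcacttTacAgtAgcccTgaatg
SULT2B1: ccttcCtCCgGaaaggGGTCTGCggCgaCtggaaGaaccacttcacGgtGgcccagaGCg
SULT1C2 differed from SULT1C4 at 11 of these 60 bases and from SULT2B1 at 18, whereas SULT1A1, SULT1A2 and SULT1A3 were identical here.

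Over whole coding sequences, SULT1C2 was 68.8% identical to SULT1C4, its closest member, and 47.9% identical to SULT2B1. One annotated transcript per gene was searched, 1359 bases for SULT1C2, which is shorter than the 2640 bases implied by its FPKM. Of all stretches of 50 bases in that SULT1C2 transcript, 0% occurred in an annotated transcript of another gene, and the same held for SULT2B1, PAPSS1 and PAPSS2. Other exons of these 4 genes were not searched. In SULT1A1, 27.6% of 50-base stretches occurred in another gene, and in SULT1A3 100% occurred in SULT1A4, whose coding sequence is identical. The sources used here do not say how reads matching several copies were counted, so the SULT1A1 and SULT1A3 counts are uncertain.

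Of the sulfotransferases with a row, SULT1C2 was the most abundant as counted and was 4.47-fold higher in mean level in TFCP2L1 cells. SULT1C2 (ENSG00000198203.9; GRCh38 chromosome 2, 108288639 to 108309915, plus strand, GENCODE v29) had 223, 176 and 205 reads in vector replicates 1 to 3 and 875, 986 and 920 reads in TFCP2L1 replicates 1 to 3. In CPM these were 5.92, 4.67 and 5.40 against 22.4, 25.1 and 24.0. The groups stood far apart, and the lowest TFCP2L1 library was 3.78-fold above the highest vector library. Pairing every TFCP2L1 library with every vector library gave ratios of 3.78 to 5.38. The means were 5.33 ± 0.628 and 23.9 ± 1.37 CPM (SD, n = 3), and edgeR's log2 fold change was 2.16 ± 0.13 (SE; 95% interval 1.89 to 2.43; adjusted p = 1.32e-08). Of the 4 tested members SULT1C2 alone was called at an adjusted p under 0.05. Among all 14431 tested genes 4.63% were called higher and 6.94% lower, 11.6% together. It ranked 25 of 14431 in fold change from the highest. The choice of members used this contrast, so nothing is read from the count against these shares. For libraries that did not overlap between groups, the count was again 1 of 4 members, with 30% of tested genes doing so.

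**Figure D1:**
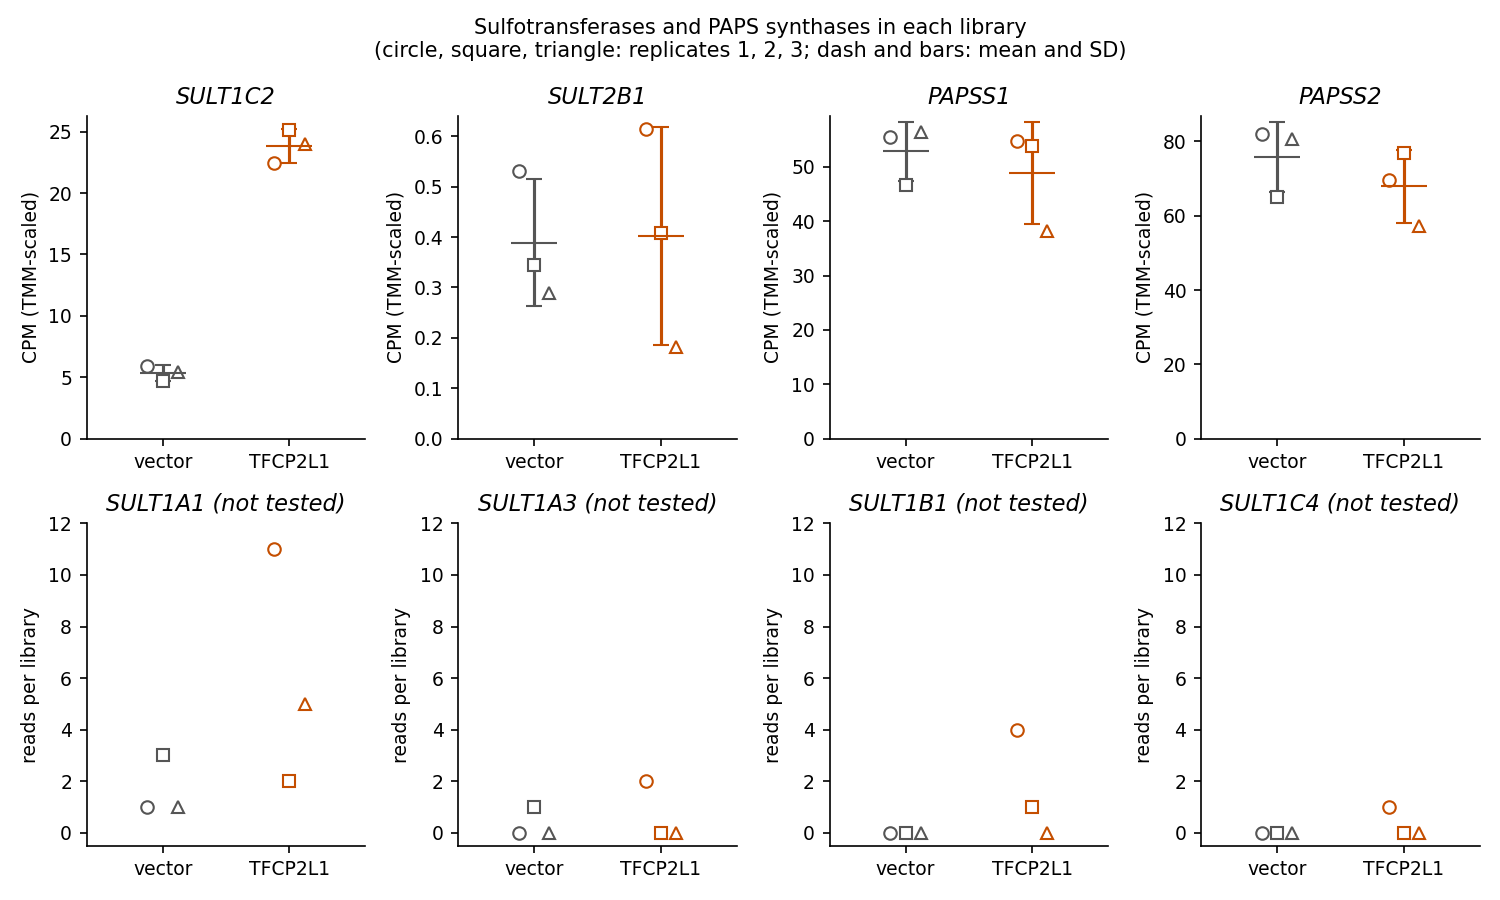
Levels of the 8 members with a row in each library, vector in grey and TFCP2L1 in orange, with CPM after TMM scaling (upper row, y axes from 0, dash and bars for mean and SD, n = 3) or reads per library (lower row, members not tested). SULT1C2 lies between 4.67 and 5.92 CPM in vector and between 22.4 and 25.1 CPM in TFCP2L1 libraries, and in every other panel the groups overlap.

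The other tested sulfotransferase was low in both groups. SULT2B1 (ENSG00000088002.11; chromosome 19, 48552075 to 48599425, plus strand), which sulfates cholesterol and pregnenolone, had 20, 13 and 11 reads in vector and 24, 16 and 7 reads in TFCP2L1 libraries. The TFCP2L1 libraries spanned the whole vector range. Its means were 0.389 ± 0.126 and 0.402 ± 0.216 CPM (SD, n = 3), with a log2 fold change of 0.05 and a 95% interval of -1.15 to 1.25 (edgeR adjusted p = 0.973). No difference was detectable at this depth, and the sign turned between settings, which gave log2 fold changes of -0.39 to 0.39.

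The 4 remaining sulfotransferases with a row were at or near 0 reads. SULT1A1 (ENSG00000196502.11; chromosome 16, 28605196 to 28623625, minus strand), the main phenol sulfotransferase of liver, had 1, 3 and 1 reads in vector and 11, 2 and 5 in TFCP2L1 libraries. TFCP2L1 replicate 2 lay inside the vector range, and 11 of the 18 TFCP2L1 reads came from replicate 1. The ratio of summed reads was 3.56 (exact binomial 95% counting interval 1.28 to 12.3, which covers counting error only). With no filter on low counts, edgeR gave SULT1A1 an adjusted p of 0.534. SULT1B1 (ENSG00000173597.8; chromosome 4, 69721162 to 69787961, minus strand), an enzyme of gut and liver that sulfates iodothyronines, had 0 reads in vector libraries, which allows up to 3 reads over the group, and 4, 1 and 0 reads in TFCP2L1 libraries. Both SULT1A1 and SULT1B1 had their highest count in TFCP2L1 replicate 1. SULT1A3 (ENSG00000261052.5; chromosome 16, 30199228 to 30204310, plus strand), which prefers catecholamines such as dopamine, had 0, 1 and 0 reads in vector and 2, 0 and 0 in TFCP2L1 libraries. The readthrough gene SLX1A-SULT1A3, looked up after the values were seen, had 13 reads over the vector and 9 over the TFCP2L1 libraries. SULT1C4 (ENSG00000198075.9; chromosome 2, 108377911 to 108388057, plus strand), a phenol-type enzyme of fetal tissues and the closest relative of SULT1C2, had 0 reads in vector and 1 read, in replicate 1, in TFCP2L1 libraries. Among 5 further cytosolic sulfotransferases, SULT1C3 had 1 read in each group and SULT4A1 had 1 read in TFCP2L1 cells. The other three, SULT1A4, SULT2A1 and SULT6B1, had no row.

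The PAPS synthases, which supply the sulfonate donor, were abundant in both groups and were not called. PAPSS1 (ENSG00000138801.8; chromosome 4, 107590276 to 107720452, minus strand), the form found in most tissues, was at 55.5, 46.7 and 56.4 CPM in vector and 54.8, 53.9 and 38.1 CPM in TFCP2L1 libraries. Only TFCP2L1 replicate 3 was below the vector range. The log2 fold change was -0.11 with a 95% interval of -0.39 to 0.16 (edgeR adjusted p = 0.644), and without TFCP2L1 replicate 3 it was 0.04 (adjusted p = 0.846). PAPSS2 (ENSG00000198682.12; chromosome 10, 87659613 to 87747705, plus strand), the form needed in cartilage and for sulfation of adrenal androgens, was at 82.0, 65.0 and 80.7 CPM in vector and 69.6, 76.9 and 57.2 CPM in TFCP2L1 libraries. Again TFCP2L1 replicate 3 was the lowest of all 6 libraries. The log2 fold change was -0.16 with a 95% interval of -0.40 to 0.08 (edgeR adjusted p = 0.412). Without TFCP2L1 replicate 3 it was -0.05 (adjusted p = 0.797), and without vector replicate 2 it was -0.26 (adjusted p = 0.162).

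Both synthases were lowest, within each group, in the library with the most mitochondrial reads. In vector replicate 2 (6.72% mitochondrial) PAPSS1 stood at 88.3% and PAPSS2 at 85.6% of their vector means. In TFCP2L1 replicate 3 (7.59%) they stood at 77.9% and 84.3% of their TFCP2L1 means. SULT1C2 was at 87.6% of its mean in the first library and at 101% in the second. The part of the mitochondrial share in these levels was not tested. Without both libraries the log2 fold changes were -0.04 (adjusted p = 0.846) for PAPSS1, -0.15 (0.342) for PAPSS2 and 2.07 (1.30e-09) for SULT1C2 by edgeR. Across the 6 libraries log2 CPM of PAPSS1 and PAPSS2 had a Pearson correlation of 0.923, given as a description of libraries that share depth and group.

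**Figure D2:**
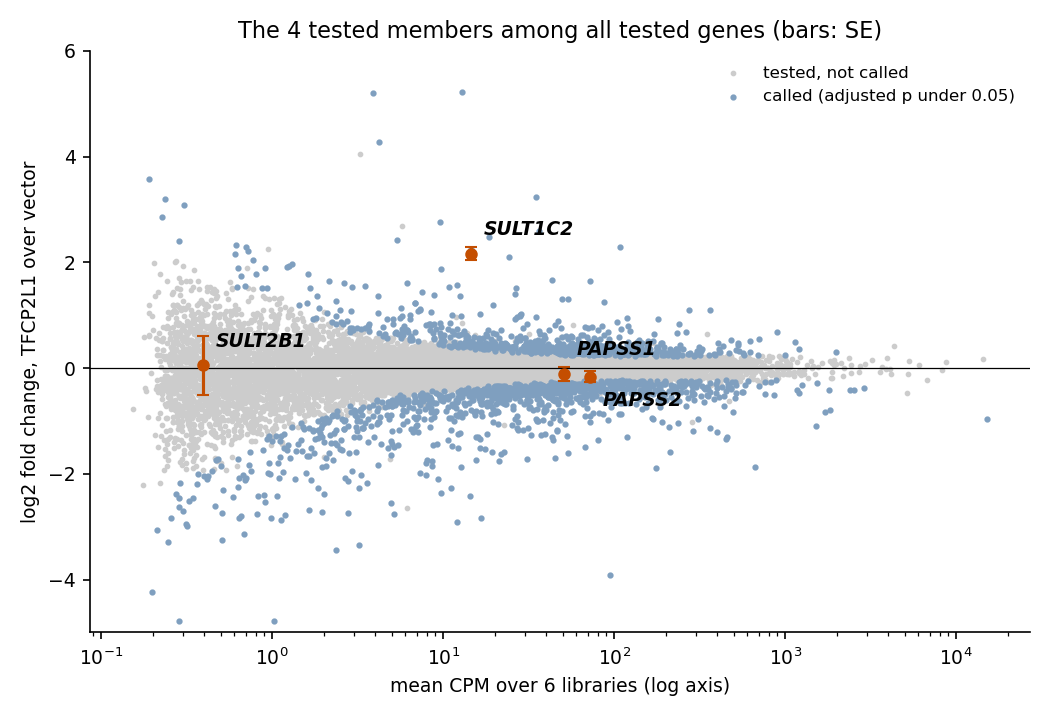
Log2 fold change of TFCP2L1 over vector cells against mean CPM over 6 libraries (log axis) for tested genes, with the 4 tested members in orange and their SE as bars; 4 genes beyond the fold axis are not drawn. SULT1C2 stands at 2.16, whereas SULT2B1, PAPSS1 and PAPSS2 lie between -0.16 and 0.05.

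Levels of different genes were compared in FPKM, the deposited values scaled by gene length and library total. In vector cells the order was PAPSS2 (20.3 ± 2.62 FPKM), PAPSS1 (18.8 ± 1.99), SULT1C2 (2.001 ± 0.244), SULT2B1 (0.274 ± 0.0896) and SULT1A1 (0.0139 ± 0.00959; SD, n = 3 each). The vector values of PAPSS2 and PAPSS1 overlapped, and every step from PAPSS1 to SULT1A1 was larger than the spread. Within a library PAPSS2 was above PAPSS1 in 5 of 6, and the exception was TFCP2L1 replicate 1, where the ratio of PAPSS2 to PAPSS1 was 0.958. That ratio averaged 1.08 ± 0.0315 in vector and 1.06 ± 0.0885 in TFCP2L1 cells. In TFCP2L1 cells the order of the first 3 genes was unchanged, with PAPSS2 at 18.5 ± 2.75, PAPSS1 at 17.7 ± 3.48 and SULT1C2 at 9.12 ± 0.466 FPKM. The FPKM of SULT1C2 was above that of 33.1% of tested genes in vector cells and of 63.0% in TFCP2L1 cells.

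Set against each other, the transcripts of the PAPS synthases and of SULT1C2 were less far apart in TFCP2L1 cells. Golgi sulfotransferases, which also use PAPS, were left out of this comparison. The summed FPKM of PAPSS1 and PAPSS2 was 18.7, 19.4 and 20.5 times the FPKM of SULT1C2 in vector libraries. In TFCP2L1 libraries it was 4.53, 4.21 and 3.20 times. The groups did not overlap, and the numerator, 39.1 ± 4.60 and 36.2 ± 6.10 FPKM, overlapped between them. The ratio thus mostly restates the SULT1C2 difference, which was used to choose the members, and is no separate result. SULT1C2 gave 85.3%, 85.9% and 90.5% of the summed FPKM of the 6 sulfotransferases with a row in vector libraries and 93.5%, 96.8% and 98.1% in TFCP2L1 libraries. Most of the rest was SULT2B1, at 0.274 FPKM in vector and 0.289 FPKM in TFCP2L1 cells from 7 to 24 reads per library. The sums also hold the SULT1A1 and SULT1A3 counts, which are uncertain. Together the 5 sulfotransferases other than SULT1C2 had 12 to 21 reads per vector library and 12 to 42 per TFCP2L1 library.

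The window around the RefSeq start of SULT1C2 was searched because this was the member whose level differed. Promoter entries (GRCh38.p14, RefSeq; 250 bases before to 50 after the start) were found for 7 of the 10 members. A paired site of CP2 factors such as TFCP2L1 was searched on both strands as exactly 2 CCAG half-sites with 6 bases between them. It had 0 matches in each of these 7, and 4.04% of 35114 promoters held it. Other spellings of the half-sites were not searched. The SULT1C2 window held 8 single CCAG half-sites on both strands, against a median of 4, and 92.1% of promoters held as many or fewer. SULT2B1, which was not called, held 13 and SULT1C4 held 8. The 30 bases shown were picked, before the SULT1C2 start, for the most bases within a CCAG or AGGTCA match. That 2 half-sites and a nuclear receptor half-site meet there follows from this choice. No other member was scanned in this way. These 30 bases lie at chr2:108288820-108288849 on the plus strand, 75 to 46 bases before the RefSeq start, with CCAG and AGGTCA in capitals.
SULT1C2: tctccctcCCAGggCCAGGTCAcagggttt
The half-sites are 2 bases apart there, not the 6 of the paired motif, and the second overlaps AGGTCA. This nuclear receptor half-site occurred on either strand in 13.8% of promoters and in no other of the 7 members. The interferon-response core, 2 copies of GAAA with 2 bases between them (3.57% of promoters), and the STAT core, TTC and GAA with 3 bases between them (7.66%), were not in the SULT1C2 window on either strand, nor was the E-box CACGTG (7.26%). The SULT1C2 window held 3 CpG dinucleotides and that of PAPSS1 44, against a median of 14. GENCODE v29 places the first SULT1C2 transcript start 256 bases further upstream, so other windows are possible. These matches are descriptions of letters, not of binding.

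The other 2 coding genes of its cluster on chromosome 2 had almost no reads. SULT1C3, 23288 bases before SULT1C2, and SULT1C4, 67996 bases after it, are transcribed in the same direction and had 2 reads and 1 read over all 6 libraries. The 5 genes whose log2 CPM over the 6 libraries was most like that of SULT1C2 were IL13RA2, a decoy receptor for interleukin 13 (Pearson r = 0.999), RGS4, which limits G protein signalling (0.998), the metalloprotease gene TLL2 (0.998), SAMHD1, which breaks down deoxynucleotides (0.997), and PARP9 (0.997). All 5 were called higher, and the correlation mainly reflects the difference between the groups that they share. Their log2 fold changes ran from 0.70 (RGS4) to 2.59 (TLL2).

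Genes that carry sulfate and PAPS or remove the by-product PAP were not called. Of 7 tested members of that list, edgeR called 0 (1 at an unadjusted p under 0.05, and DESeq2 also called 0). Their median log2 fold change was -0.12, against 0.00 over all tested genes. SLC35B2 and SLC35B3, the PAPS carriers of the Golgi membrane, were at 66.9 ± 4.85 and 32.1 ± 2.07 CPM in vector cells and 68.5 ± 10.04 and 29.6 ± 2.17 CPM in TFCP2L1 cells. The sulfate transporter gene SLC26A2 was at 66.4 ± 4.96 and 62.4 ± 3.95 CPM. BPNT1, a cytosolic phosphatase that clears PAP, was at 69.5 ± 1.53 and 62.5 ± 1.05 CPM (log2 fold change -0.15, edgeR adjusted p = 0.211), and SLC26A11 at 14.5 ± 2.50 and 11.8 ± 1.18 CPM (-0.30, 0.184). SLC35B2, SLC35B3 and SLC26A2 were chosen for their role after their values were seen.

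Sulfatases remove sulfate groups. Of 15 tested sulfatases and activating factors edgeR called 5 lower and 0 higher (median log2 fold change -0.12), with 6.94% of all tested genes called lower. At an unadjusted p under 0.05, 1 was higher and 6 lower by edgeR, and DESeq2 called 0 higher and 5 lower. With the replicate block 3 were lower, and without both libraries with the highest mitochondrial share 4 were lower and 1 higher. ARSA, which breaks down sulfatide, fell from 42.1 ± 1.86 to 32.2 ± 3.72 CPM (SD, n = 3; log2 fold change -0.38 ± 0.10, adjusted p = 0.0177), and ARSD from 19.1 ± 1.17 to 14.2 ± 1.21 CPM (adjusted p = 0.0185). ARSA was no longer called in 4 of 15 alternatives, which left out vector replicate 1 (0.0887) or vector replicate 3 (0.0900) or used limma on log2(FPKM + 1) (0.0651) or log2(FPKM + 0.1) (0.0633). ARSD was no longer called when vector replicate 2 (0.0756), vector replicate 3 (0.0804) or TFCP2L1 replicate 1 (0.0873) was left out, or both libraries with the highest mitochondrial share (0.0663). STS, the steroid sulfatase that reverses the cytosolic reaction on steroid sulfates, was at 19.1 ± 1.79 and 16.8 ± 1.53 CPM and was not called (adjusted p = 0.350). STS was named after its value was seen.

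Golgi sulfotransferases use PAPS to modify sugar chains and tyrosines, and 20 of the 23 tested were not called. By edgeR 2 rose and 1 fell, 13.04% against 11.6% of all tested genes, or 1 and 1 with the replicate block. Their median log2 fold change was 0.01. DESeq2 called 2 higher and 3 lower, and at an unadjusted p under 0.05 edgeR gave 6 higher and 5 lower. NDST2, an N-sulfating enzyme of heparan chains, rose from 32.6 ± 2.69 to 57.3 ± 3.28 CPM (0.81 ± 0.09, adjusted p = 1.40e-05). CHST15, which sulfates chondroitin chains, fell from 118 ± 8.13 to 80.7 ± 4.25 CPM (-0.55 ± 0.08, adjusted p = 0.000185). HS6ST1, which sulfates heparan chains, rose from 13.6 ± 1.96 to 18.8 ± 2.14 CPM (adjusted p = 0.0274). HS6ST1 was no longer called when vector replicate 1 (0.0805), vector replicate 3 (0.160) or TFCP2L1 replicate 1 (0.123) was left out, with the replicate block (0.0883), or by limma with either pseudocount (0.0575 and 0.0554).

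Transport and metabolism of sulfotransferase substrates were read from a further list. Of 18 tested genes for iodothyronines and steroids, edgeR gave 0 higher and 5 lower at an unadjusted p under 0.05. DESeq2 called 0 higher and 4 lower. The median log2 fold change was -0.12, and edgeR called 4 lower and 0 higher. That is 22.2% of the list, with 6.94% of all tested genes called lower, and 3 were lower with the replicate block. HSD17B14, a steroid dehydrogenase, fell from 3.40 ± 0.282 to 1.27 ± 0.0667 CPM (-1.42 ± 0.24, adjusted p = 0.000854). SLCO2B1, a carrier of steroid sulfates, fell from 37.8 ± 1.92 to 16.9 ± 2.10 CPM (-1.16 ± 0.11, adjusted p = 1.99e-06). The groups did not overlap for either gene, which was so for 30% of all tested genes.

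Other conjugating enzymes were lower in TFCP2L1 cells where they were called. Of 17 tested, edgeR gave 0 higher and 4 lower at an unadjusted p under 0.05. DESeq2 called 0 higher and 4 lower. The median log2 fold change was -0.09, and edgeR called 3 lower and 0 higher. That is 17.6% of the list, with 6.94% of all tested genes called lower, and 2 were lower with the replicate block. UGT2B7, which attaches glucuronic acid to steroids and drugs and so shares substrates with sulfotransferases, fell from 45.8 ± 2.80 to 19.1 ± 1.69 CPM (-1.26 ± 0.10, adjusted p = 2.82e-07). MGST3 fell from 68.4 ± 6.41 to 52.8 ± 6.03 CPM (adjusted p = 0.0187), which was above 0.05 when vector replicate 1 (0.125) or vector replicate 3 (0.0808) was left out and by limma with either pseudocount (0.0912 and 0.0864). GSTO1 fell from 215 ± 18.1 to 174 ± 18.1 CPM (adjusted p = 0.0334), which was above 0.05 when vector replicate 1 (0.174), vector replicate 3 (0.150), TFCP2L1 replicate 2 (0.0535) or TFCP2L1 replicate 3 (0.0731) was left out, and with the replicate block (0.0796). Library totals alone (0.0592) and limma (0.145 and 0.139) also ended that call, so that it was absent in 8 of 15 alternatives. Nuclear receptors and xenobiotic sensors can act on sulfotransferase genes in other tissues, and the median log2 fold change of 15 tested was -0.07. At an unadjusted p under 0.05, 1 was higher and 4 lower by edgeR. DESeq2 called 0 higher and 1 lower. After adjustment edgeR called 1 lower and 0 higher. This 6.67% of the list is close to the 6.94% of all tested genes called lower. It was AHR, the dioxin receptor, at 36.1 ± 3.25 and 28.1 ± 3.64 CPM (adjusted p = 0.0411). AHR was no longer called when vector replicate 2 (0.117), vector replicate 3 (0.182), TFCP2L1 replicate 1 (0.168) or TFCP2L1 replicate 2 (0.0829) was left out, nor with the replicate block (0.0554), library totals alone (0.0542) or limma (0.107 and 0.105), which makes 8 of 15 alternatives. PPARA, the fatty acid receptor, was at 35.6 ± 1.69 and 30.3 ± 1.67 CPM (adjusted p = 0.118).

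**Figure D3:**
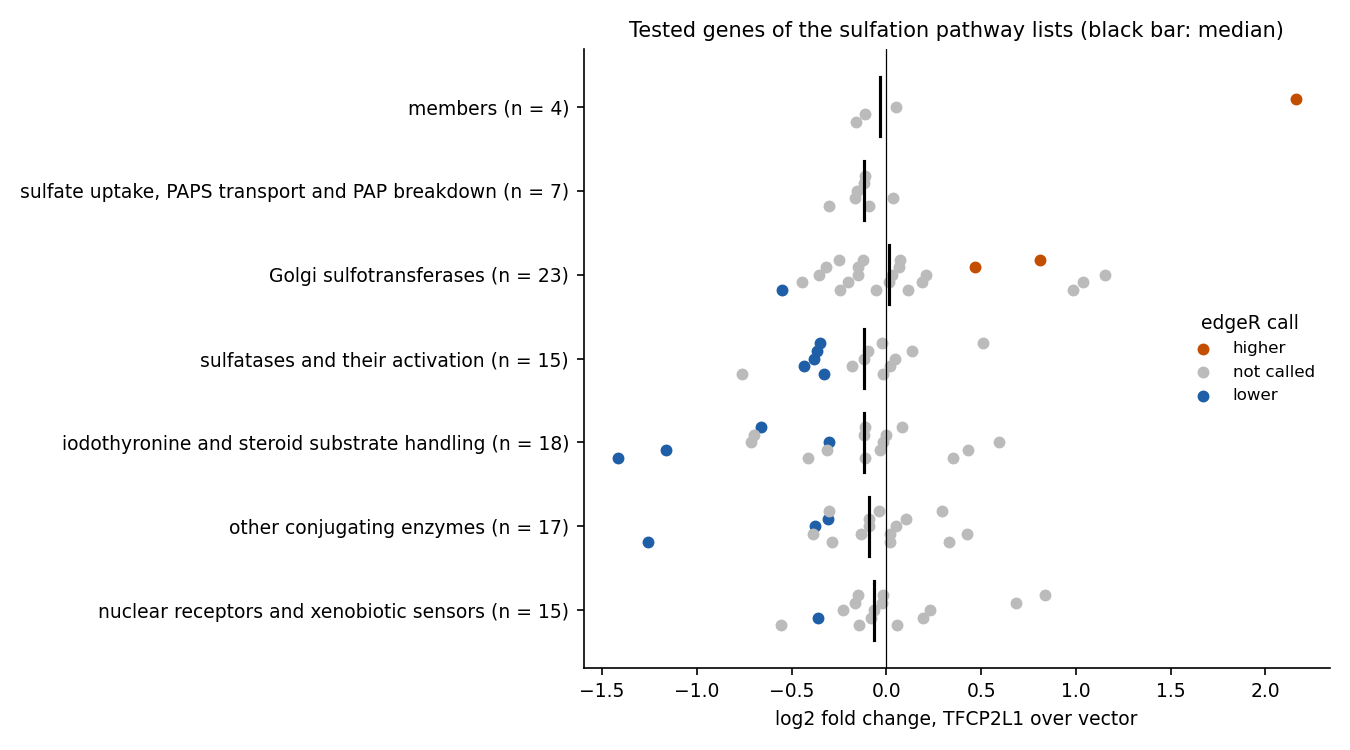
Log2 fold change of TFCP2L1 over vector cells (x axis) for every tested gene among the members and 6 pathway lists, with orange for genes called higher, blue for lower and grey for not called by edgeR; black bars are medians and n is the number tested. SULT1C2 at 2.16 lies beyond every other gene drawn, and the list medians lie between -0.12 and 0.01.

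SULT1C2 kept its call in all 16 settings run, while the PAPS synthases were called in 0 of 16. The settings reuse the same libraries, and SULT1C2 was among the values used to choose the members. These calls therefore describe the dependence on processing only. Its log2 fold change ran from 1.76 (limma on log2(FPKM + 1), which understates folds of low genes) to 2.24 (without vector replicate 1). PAPSS1 ran from -0.20 to 0.04 and PAPSS2 from -0.26 to -0.05.

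**Figure D4:**
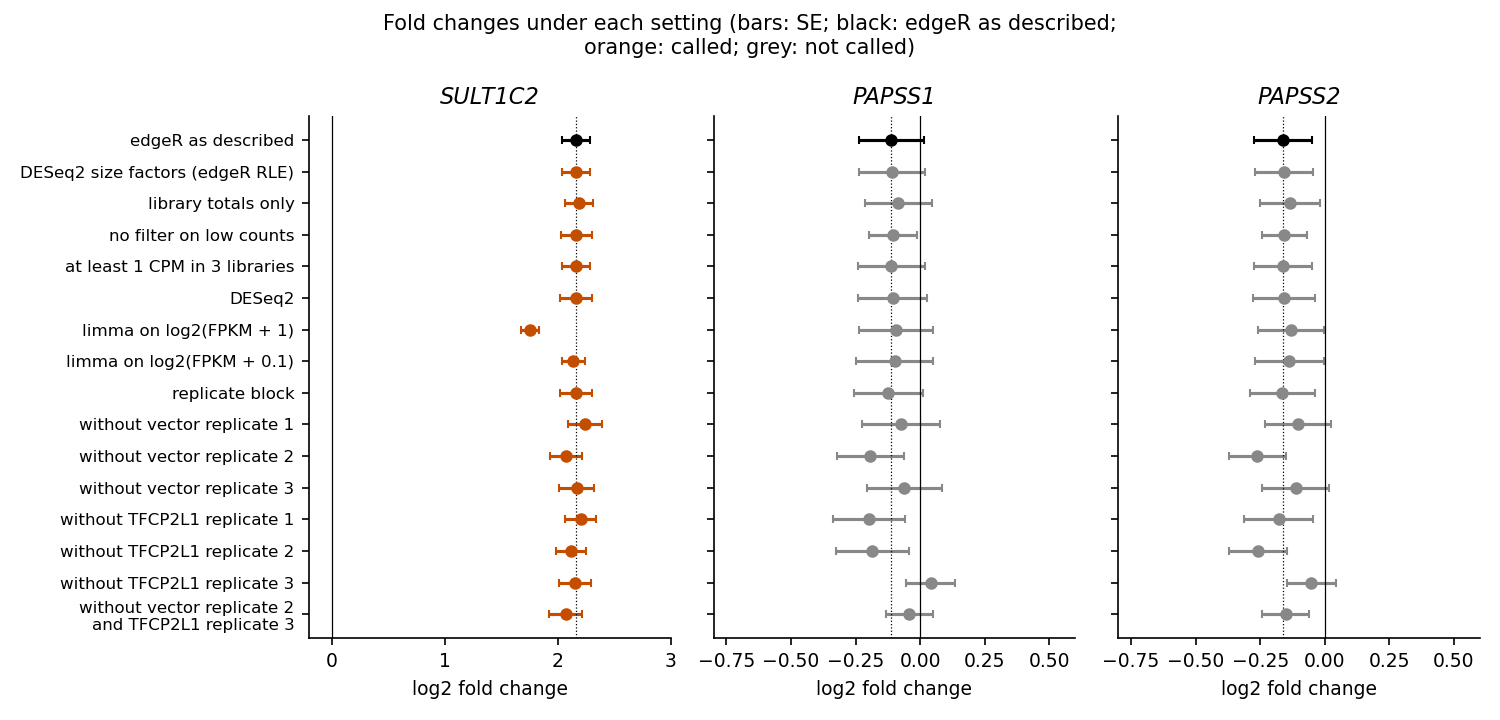
Log2 fold change with SE of SULT1C2, PAPSS1 and PAPSS2 under each of 16 settings, in black for edgeR as described, orange where called and grey where not. SULT1C2 stays between 1.76 and 2.24, and PAPSS1 lies on the other side of 0 without TFCP2L1 replicate 3.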

How the data were processed

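The authors deposited raw read counts and FPKM values for 21173 genes, all with a read somewhere. Tools named in the submitters' processing notes were HTSeq, HISAT2 and fastp, without versions, and the build GRCh38.p13. The sources used here do not give the strand setting. The deposited FPKM values equalled counts divided by 1 gene length and the library total (spread of implied length at most 0.00012%), so they added no independent measurement. Counts were tested with edgeR 4.0.16 (R 4.3.3): filterByExpr (14431 genes kept), TMM, quasi-likelihood F-test with robust estimation, 1 fit of all 6 libraries, two-sided, with calls at 0.05 after Benjamini-Hochberg adjustment. SE was the log2 fold change over the square root of F. DESeq2 1.42.0 and limma 3.58.1 served as alternatives. Coding sequences were aligned with MAFFT 7.526. edgeR estimated a biological coefficient of variation of 10.8%.

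Members, lists, tests and most alternatives were chosen with earlier results on these data known. Named genes were TFCP2L1, all members, from each list the 3 most changed called genes (with fewer than 2 calls, its 2 lowest p-values) and the 5 genes closest to SULT1C2 in pattern. Some genes that this rule names are not reported here. No set test was run.

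Lists of cell type markers were read for identity only. Calls were KRT7 lower of 3 tested epithelial markers, 0 of 5 thyroid, 0 of 3 fibroblast, 0 of 1 endothelial and 0 of 1 C cell markers, ITGAX lower and CD68 higher of 2 leukocyte markers, and SERPINA1 lower as the 1 tested liver and gut marker. By DESeq2 those lists with 0 also had 0, and at an unadjusted p under 0.05 edgeR gave 2 thyroid and 1 fibroblast markers. Of 13 mitochondrially encoded genes 0 were called by edgeR or DESeq2, or had an unadjusted p under 0.05.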

Additional observations from a re-analysis of the deposited data

How the results depend on the processing

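Over 15 alternatives, 1 member (SULT1C2) was called higher and 0 lower in each. All refit the libraries on which the members were chosen, so this is no separate evidence for SULT1C2. Over all genes, edgeR called 668 higher and 1002 lower. With the replicate number as a block these counts became 328 and 649, and leaving out 1 library gave 298 to 766 higher and 621 to 1106 lower. With library totals as the only scaling, 884 were higher and 903 lower. Of 95 tested genes in the 7 pathway lists 16 were called. This became 9 by limma on log2(FPKM + 1) and on log2(FPKM + 0.1), 10 with the replicate block, and 8 to 19 on leaving out 1 library. For the counts that moved the cause was not tested. Deviations from the group mean correlated at 0.0721, -0.161 and -0.124 for same-numbered libraries and at -0.108 to 0.22 for differently numbered ones. With 3 libraries a group, these values cannot show whether the replicate numbers pair the samples. Leaving out vector replicate 2 and TFCP2L1 replicate 3, an alternative chosen after seeing the data, gave 548 higher, 878 lower and 18 pathway genes. Among 20 genes tested one by one, 34 values lost their call and 265 stayed called or stayed not called. The latter include values of SULT2B1 and PAPSS1, never called, whose sign turned. None reversed a called direction. With 3 libraries a group, SULT2B1 (7 to 24 reads per library) and the untested members are limited by depth.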

Other observations

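The protein-coding genes next after the SULT1C cluster, within 250 kb of SULT1C2, were looked at after their values were seen. GCC2, a Golgi coiled-coil gene 138646 bases after SULT1C2, was at 65.8 ± 2.18 CPM in vector and 54.5 ± 5.71 CPM in TFCP2L1 cells (SD, n = 3), a log2 fold change of -0.27 with a 95% interval of -0.46 to -0.09 (edgeR adjusted p = 0.0551). LIMS1, an adaptor of focal adhesions 224440 bases after it, was at 74.8 ± 4.45 and 60.4 ± 9.74 CPM (-0.31, 95% interval -0.53 to -0.09, edgeR adjusted p = 0.0662). Neither was called, and both had the opposite sign to SULT1C2. The groups did not overlap for either, which was so for 30% of all tested genes. The 2 annotated SULT1C pseudogenes between SULT1C2 and SULT1C4, SULT1C2P1 and SULT1C2P2, were not analysed here.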
